A study of Mus musculus with 28 samples.

Results

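The regions described here are stretches of the 19 mouse autosomes that carried trimethylated lysine 9 of histone H3 (H3K9me3) at both ends of a differentiation course, at day 3 and at day 35. A member is a region of the day-35 H3K9me3 list on chromosomes 1 to 19 that overlaps a day-3 H3K9me3 region by 1 bp or more. By this rule 12379 of the 33952 autosomal day-35 regions were members, out of 45063 regions in the whole day-35 list. The members were chosen by the positions of both H3K9me3 lists, so their presence, width and score in these lists are given as a description and are not tested. The remaining 21573 autosomal day-35 regions, called only at day 35, serve as the set beside which the members are described.

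The cells were IDG-SW3, a mouse bone cell line that the labels call osteocytic. It carries a green fluorescent protein gene under the Dmp1 promoter and a conditional T antigen that keeps it dividing, so both days share these transgenes. Cells were expanded at 33 °C with interferon gamma and then moved to 37 °C in osteogenic medium without it, which starts the passage from osteoblast-like to osteocyte-like cells. Chromatin was taken at day 3 and at day 35 without hormone, and 1 library was made per mark and day, for H3K9me3 and for 8 other histone marks. Binding of the vitamin D receptor, VDR, and of RXR, which pairs with it, was profiled at day 35 alone, in 2 libraries each with vehicle and with 100 nM 1,25-dihydroxyvitamin D3 for 3 h. With 1 H3K9me3 library per day there is no replicate, and no difference between days has a measured error. The line is a single immortalized source, and the read number behind each list was not stated in the sources at hand. From the list of 10 osteoblast and osteocyte markers, 9 were found among the autosomal genes of the annotation. Of these, 6 had an H3K4me3 region within 1 kb of a transcription start (TSS) at each day, among them Col1a1, Alpl, Sp7 and Runx2. An H3K27Ac region was there for 8. Over all autosomal protein-coding genes the shares at days 3 and 35 were 47.9% and 42.7% for H3K4me3 and 60.4% and 58.9% for H3K27Ac. Sost, the osteocyte-derived Wnt inhibitor, was without either at both days. None of the myogenic, haematopoietic, neural, endothelial or cartilage markers had an H3K4me3 region there at either day, though Myf5, Sfpi1, Tubb3 and Pecam1 had H3K27Ac at day 3. Of the adipocyte markers, Pparg had H3K4me3 at both days.

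H3K9me3 is the mark of constitutive heterochromatin and is read by HP1 proteins. It is laid down by the SUV39H enzymes and by SETDB1, which is brought to DNA by KRAB zinc finger proteins through TRIM28. Besides repeats, its known places in single-copy sequence are the 3′ parts of C2H2 zinc finger genes, where it lies together with H3K36me3, the mark of transcribed gene bodies, and the methylated allele of imprint control regions. There the zinc finger protein ZFP57 binds the methylated hexamer TGCCGC and holds the mark. The other marks profiled here are mostly those of promoters and enhancers (H3K4me1, H3K4me2, H3K4me3 and the acetylations), and H4K20me1 lies over some transcribed bodies.

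From 3 kinds of member, the sequences that the results below turn on are shown first, all in the mm9 build and outside untranslated exons. The first is that of members at imprinted gene starts, with the hexamer TGCCGC, read on either strand, in capitals. The stretch in the member at Nnat, in an intron of Blcap and Nnat, is chr2:157386039-157386168, that at Mest, in an intron, is chr6:30687599-30687728, and that at Gnas, in a coding exon, is chr2:174110328-174110457, all on the plus strand.
Nnat: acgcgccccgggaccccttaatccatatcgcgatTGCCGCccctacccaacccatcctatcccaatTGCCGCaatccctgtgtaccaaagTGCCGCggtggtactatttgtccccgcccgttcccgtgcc
Mest: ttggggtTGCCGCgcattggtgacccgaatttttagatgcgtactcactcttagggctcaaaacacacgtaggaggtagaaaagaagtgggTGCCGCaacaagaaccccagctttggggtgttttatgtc
Gnas: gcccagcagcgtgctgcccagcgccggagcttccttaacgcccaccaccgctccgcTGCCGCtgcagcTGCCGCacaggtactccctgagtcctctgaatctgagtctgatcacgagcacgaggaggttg
These stretches of 130 bases hold 3, 2 and 2 hexamers and 12, 6 and 10 CpG dinucleotides. They were picked as the windows of these members with most hexamers.

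The second kind is the CpG-rich coding sequence of genes for developmental transcription factors, with every CpG in capitals. The windows are chr2:79294795-79294914 in Neurod1, chr3:34549345-34549464 in Sox2, chr4:99324063-99324182 in Foxd3 and chr12:105711147-105711266 in Gsc, each the 120 bases with most CpG in the member, on the plus strand.
Neurod1: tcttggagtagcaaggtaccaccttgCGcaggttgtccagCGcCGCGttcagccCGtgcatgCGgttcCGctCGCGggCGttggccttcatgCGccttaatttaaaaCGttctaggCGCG
Sox2: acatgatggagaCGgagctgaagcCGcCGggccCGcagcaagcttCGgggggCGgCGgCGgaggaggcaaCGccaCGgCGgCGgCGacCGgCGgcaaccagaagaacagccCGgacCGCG
Foxd3: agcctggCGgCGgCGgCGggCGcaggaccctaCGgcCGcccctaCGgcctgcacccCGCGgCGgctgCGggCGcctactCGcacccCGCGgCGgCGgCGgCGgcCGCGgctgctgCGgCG
Gsc: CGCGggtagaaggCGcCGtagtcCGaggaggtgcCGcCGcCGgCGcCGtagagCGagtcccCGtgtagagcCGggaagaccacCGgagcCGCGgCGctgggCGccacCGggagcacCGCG
They hold 14, 18, 24 and 21 CpG dinucleotides. In each of these genes the member covered the whole annotated body.

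The third kind is the zinc finger array of C2H2 genes, shown as the 84 coding bases of a finger and its linker to the next finger, with the codons of the zinc-binding cysteines and histidines in capitals. The fingers lie at chr10:81522638-81522721 in Zfp873, chr8:4628289-4628372 in Zfp958, chr8:71751863-71751946 in Zfp930 and chr8:74413306-74413389 in Zfp709, all genes of the plus strand.
Zfp873: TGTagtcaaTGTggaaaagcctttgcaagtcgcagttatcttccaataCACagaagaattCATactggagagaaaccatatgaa
Zfp958: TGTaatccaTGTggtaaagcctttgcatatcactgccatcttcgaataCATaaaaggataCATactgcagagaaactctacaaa
Zfp930: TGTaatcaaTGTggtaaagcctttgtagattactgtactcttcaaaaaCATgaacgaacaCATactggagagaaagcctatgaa
Zfp709: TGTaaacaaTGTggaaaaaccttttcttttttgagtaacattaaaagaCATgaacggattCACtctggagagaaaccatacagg
Each of these stretches holds 1 CpG. Between pairs of the 4 fingers, from 66.7% to 78.6% of the 84 bases were the same. How the authors placed reads that fit several copies was not stated in the sources at hand.

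The members made up 36.5% of the autosomal day-35 regions (95% Wilson interval 35.9% to 37.0%) and 52.4% of their bases, 26.7 of 50.9 Mb. They touched 12291 of the 31517 autosomal day-3 regions, or 39.0%. Wilson intervals here cover counting error alone, and neighbouring regions are not independent. Most members (12111, or 97.8%) overlapped a single day-3 region, and the largest number on 1 member was 17. The median member was covered by day-3 regions over 85.6% of its bases, 4410 members were covered in full, and 1211 (9.78%) over less than 25%. At the edge of the rule, 69 members overlapped a day-3 region by under 100 bp, the least by 3 bp, while 58 regions called only at day 35 ended within 100 bp of a day-3 region, the nearest with a gap of 0 bp. The median gap from a day-35-only region to the nearest day-3 region was 32.8 kb.

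Members were wide and high in the list. Their median width was 1167 bp (quartiles 658 and 2524 bp) against 641 bp (500 and 1191 bp) for regions called only at day 35, and their widest reached 169585 bp against 18863 bp. The shortest called region was 500 bp in both sets, a width held by 17.5% of members and 43.7% of the others. Each region carries a score from the authors' peak calling, used here only to rank regions within a list. The median member stood at percentile 68.3 of the day-35 list and the median day-35-only region at percentile 37.3. The share of autosomal day-35 regions that were members rose with width, from 26.4% of regions under 1000 bp through 47.8% (1000 to 2500 bp) and 52.6% (2500 to 5000 bp) to 73.8% of those of 5 kb or more. A wide region also has more bases with which to meet the rule.

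**Figure D1:**
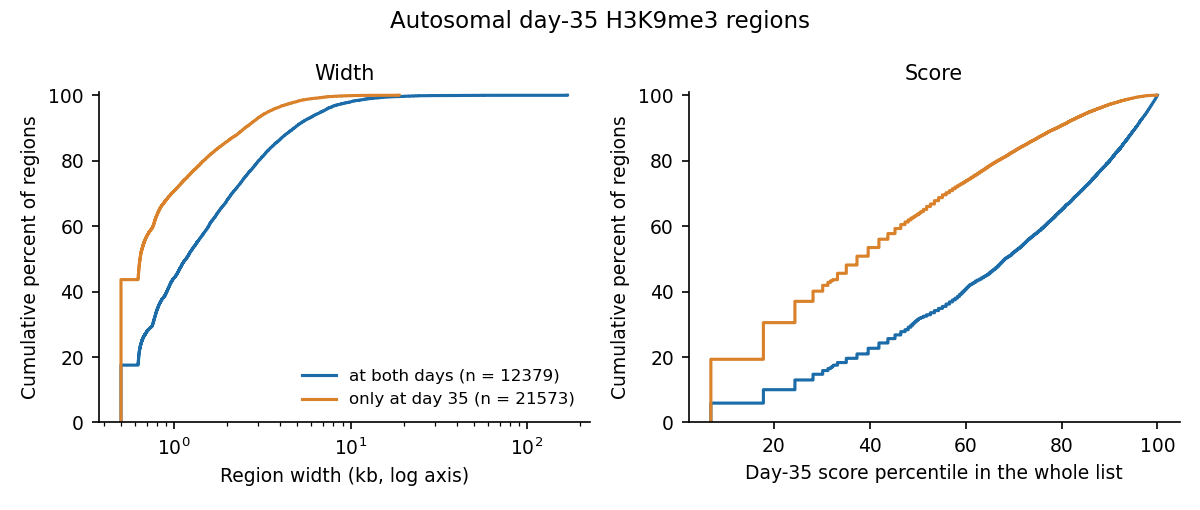
Cumulative percent of autosomal day-35 H3K9me3 regions by width (left, kb on a log axis) and by percentile of the day-35 score (right), for the 12379 regions at both days and the 21573 only at day 35. The curve of the members lies to the right in both panels, with medians of 1167 against 641 bp and of 68.3 against 37.3.

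Along the chromosomes, members were densest on chromosome 19 with 9.05 per Mb and chromosome 8 with 7.96, and sparsest on chromosome 14 with 1.88. Chromosome 19 had 2.20% of its length in members and chromosome 14 had 0.307%. Joined across gaps of up to 50 kb, the members formed 6465 groups, of which 4012 held a single member and 441 held 5 or more. The groups with most covered sequence outside chromosome 10 lay over Irx6 on chromosome 8 (19 members, 104 kb), the protocadherin gamma cluster on chromosome 18 (5 members, 98.0 kb), Zfp641 and its olfactory receptor neighbours on chromosome 15 (12 members, 95.6 kb), Zfp930 on chromosome 8 (8 members, 94.4 kb) and the Hoxd cluster on chromosome 2 (15 members, 88.5 kb). On chromosome 10, a C2H2 cluster with Zfp873, AU041133 and Zfp938 held 9 members over 111 kb.

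Of the 15 widest members, 7 lay in a block of chromosome 10 around Cpm and Mdm2, led by the 169585 bp region at chr10:116927497-117097081. The 54 members of that block covered 716 kb, and 42 of them overlapped 8 or more of the 16 lists of other marks. The 34 members of the Arid5b block covered 130 kb, and 25 of them did so. Outside that chromosome, the widest were at Sfi1 on chromosome 11 (69567 bp), in the protocadherin gamma cluster (52605 and 38717 bp), over the Ugt1a glucuronosyltransferase genes (44059 bp), over Zfp454, Zfp2 and Zfp354b (41804 bp), in Egflam (28505 bp) and near Tle4 (26790 bp). Outside both chromosome 10 blocks there were 12291 members.

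The 15 members ranked highest over both days, by the mean of the score percentiles, fell into recognizable kinds. At 6 of them lay genes classed as C2H2 by symbol or by fingers: 2610008E11Rik, Zfp930, AU041133, Zfp68, Zfp958 and Zfp950 (by symbol alone, with 0 finger matches in a translated transcript). Others lay on the homeobox genes Nkx2-3 and Evx2, on the imprinted Krüppel-like factor gene Klf14, and on the Ugt1a and protocadherin gamma genes. The first 4, at Sfi1, between genes on chromosome 17 (the nearest TSS, of Pgk2, is 362697 bp away), at Dmp1 and at chr9:3015121-3038513, each also overlapped a called region of every other mark at both days.

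In all, 24 members overlapped all 16 lists of other marks, against 4 of the regions called only at day 35. Their median percentile at day 35 was 96.3. The member at Dmp1, the gene of a matrix phosphoprotein of osteocytes, spans chr5:104623145-104636361, reaches from upstream over the annotated start, and covers 41.2% of the body. Regions of each of the other 8 marks covered from 96.2% to 100% of it at both days. The cell line carries added Dmp1 promoter sequence in its transgene, whose part in these calls was not tested. Without the 315 members that overlapped 8 or more of the lists, 12064 members remained.

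By position, 3.02% of member centres lay within 1 kb of a TSS, 2.11% in exons, 25.0% in introns and 69.9% between genes. For regions called only at day 35 the shares were 1.04%, 1.16%, 25.6% and 72.2%. The median distance from a member's centre to the nearest TSS was 30.0 kb, against 62.9 kb. Both sets were thus mostly intergenic, and at gene starts the intervals (2.73% to 3.34% and 0.912% to 1.18%) did not overlap.

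Of 21281 autosomal protein-coding genes, 2405 (11.3%) held a member on the body and 1983 (9.32%) held a region called only at day 35. Against that background the families differed widely. C2H2 zinc finger genes, taken by their symbols, held a member at 129 of 385 (33.5%, interval 29% to 38.4%) and a day-35-only region at 28 (7.27%). Their median length of 14.5 kb was close to the 15.6 kb of all genes. Counted instead by 3 or more fingers in the translated transcripts, 175 of 510 genes held a member (34.3%). Of the large clustered families of chemosensation, 3 of 1106 olfactory receptor genes and 1 of 329 vomeronasal receptor genes held one. These genes are annotated with short bodies, with medians of 0.961 and 1.09 kb. Clustered protocadherins held a member at 4 of 24 genes, cytochromes P450 at 9 of 98, keratins at 4 of 51, serpins at 2 of 59, beta defensins at 1 of 41, histone genes at 1 of 67 and kallikreins at 1 of 28, and the 21 major urinary protein, 29 Ceacam and Psg and 4 secretoglobin genes at none. Keratins and cytochromes P450 were more often under regions called only at day 35, with 12 of 51 (23.5%) and 22 of 98 genes (22.4%). So were olfactory receptors, with 20 of 1106 genes (1.81%), vomeronasal receptors, with 14 of 329 (4.26%), and beta defensins, with 6 of 41 (14.6%). Serpins (3 of 59) and Ceacam and Psg genes (2 of 29) went the same way by small counts.

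The C2H2 genes with a member mostly had it over their last coding exon, which in this family holds the finger array. Of the 129 genes, 103 (79.8%) had members over at least 50% of that exon, and the median cover was 100%. Only 39 (30.2%) had a member within 1 kb of a TSS, close to the 28.1% of all genes with a member on the body. Over all genes, with or without a member, the share was 3.81%. Averaged over the gene body, cover was 11.7% in the first of 20 equal parts, 24.4% in the part just past the middle 67.4% in the last but one and 61.1% in the last. An H3K4me3 region lay within 1 kb of a TSS of 67.4% of these genes at day 3 and 51.2% at day 35, against 71.1% and 61.3% of the 256 C2H2 genes without a member and 47.9% and 42.7% of all genes. For H3K27Ac the shares were 80.6% and 81.4%, against 80.5% at both days without a member and 60.4% and 58.9% of all genes. So at least 51.2% of the C2H2 genes with a member had each of these marks at a start, at either day. H3K36me3 covered a median of 63.5% of their bodies at day 3 and 63.1% at day 35. The medians were 63.6% and 65.9% for the C2H2 genes without a member, and 3.73% and 12.9% for all genes. This cover was thus common to C2H2 genes with and without a member.

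**Figure D2:**
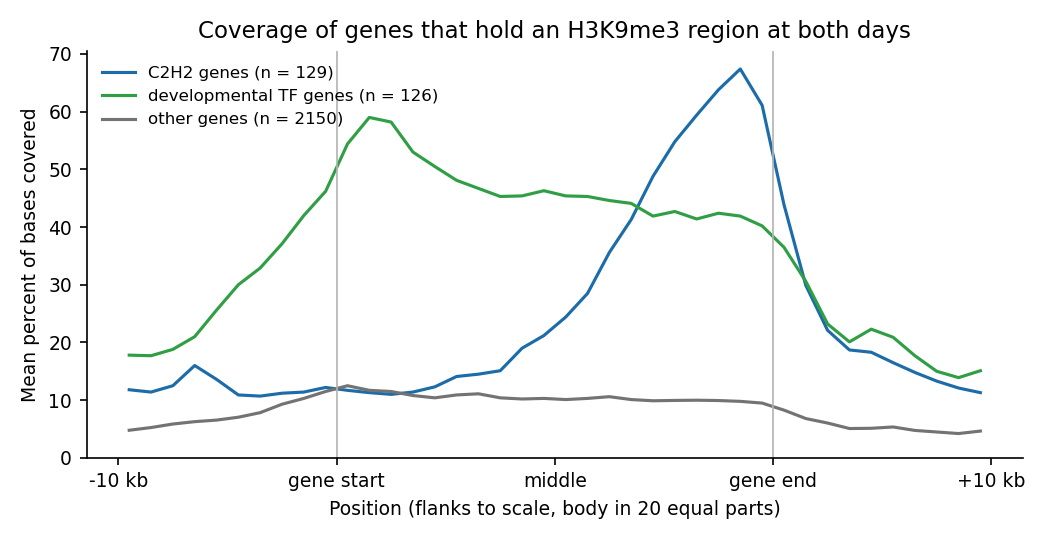
Mean percent of bases covered by members along genes that hold a member, from 10 kb before the start to 10 kb after the end, with the gene body in 20 equal parts. C2H2 genes (n = 129) rise toward the gene end, reaching 67.4% in the last part but one, developmental transcription factor genes (n = 126) are covered most near the start, with 54.4%, 59.0% and 58.2% in the first 3 parts and 40.2% in the last, and the other genes (n = 2150) go from 12.5% in the first part to 9.49% in the last.

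The 10 C2H2 genes with the largest share of the body under members were each covered in full: Zfp2, Zfp951, Zfp939, Zfp709, Zfp958, Zfp873, Zfp930, Zfp950, Zfp125 and Zfp850. Several of them are annotated as short models of the finger-coding part, such as Zfp930 with 2.64 kb and Zfp958 with 3.54 kb. Zfp950 and Zfp850, classed by symbol, had 0 finger matches in a translated transcript, and Zfp125 had 2. Zfp958 has 13 fingers in its translated transcript. Its member (chr8:4622809-4632724) was 9916 bp wide at day 35 and lay inside a 16196 bp region at day 3. The member at Zfp709 (18 fingers) was 10434 bp wide, with a day-3 region of 11046 bp. That at Zfp2 was wider, at 41804 bp, but day-3 regions covered 29.3% of it, the widest of them 8927 bp. H3K36me3 covered 100% of the Zfp958 member at both days, 97.1% and 99.3% of the Zfp709 member and 87.4% and 88.3% of the Zfp930 member at days 3 and 35. At Zfp2 the cover was 0% at day 3 and 16% at day 35.

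Genes for developmental transcription factors, a group of homeobox, forkhead, Sox, T-box, GATA, bHLH and related families whose symbols were chosen after values were seen, held a member more often than the C2H2 genes did. A member lay on 126 of 243 of them (51.9%, interval 45.6% to 58.1%), and a region called only at day 35 on 15 (6.17%). These genes are short, with a median of 5.49 kb. Members covered a median of 38% of the body of those they touched, and 51 genes were covered over 50% or more. By family the count was 4 of 4 Zic genes, 8 of 9 paired box genes, 4 of 5 GATA genes, 9 of 14 Nkx genes, 5 of 8 LIM homeobox genes, 6 of 12 T-box genes, 14 of 40 forkhead genes and 5 of 17 Sox genes. The paired box genes were long, with a median of 55.0 kb, and members covered a median of 12.4% of the 8 they touched. A region called only at day 35 lay on 6 of the 9. Among Hox genes, the regulators of position along the body axis, a member lay on 7 of 9 Hoxd and 7 of 10 Hoxb genes but on 0 of 11 Hoxa and 0 of 9 Hoxc genes.

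**Figure D3:**
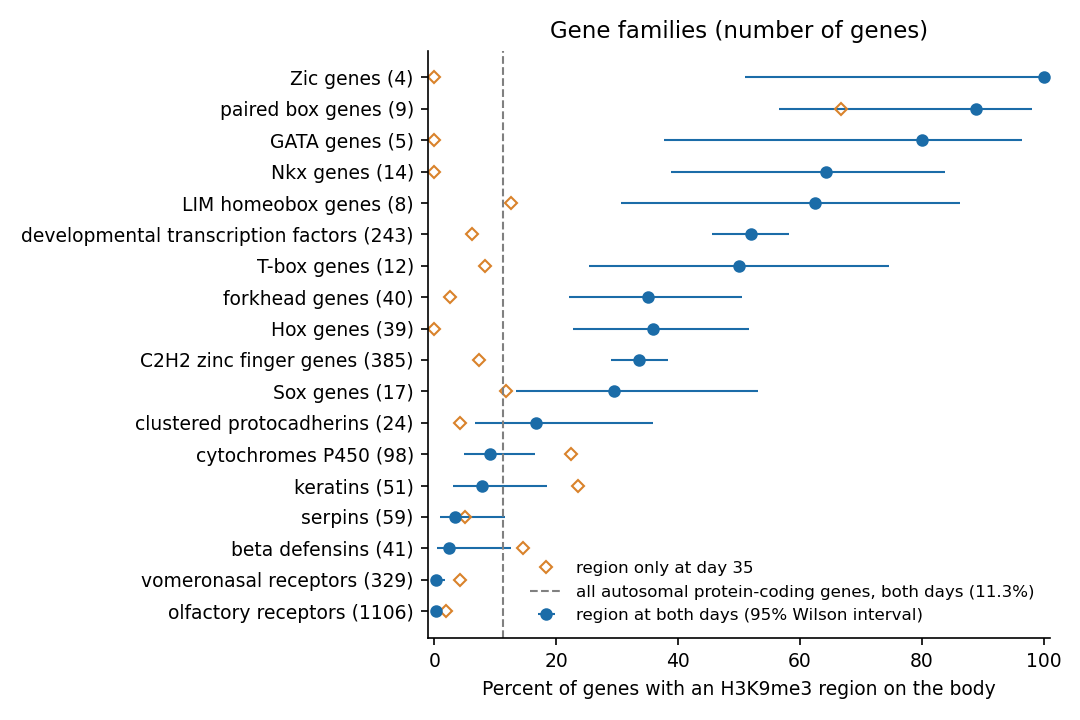
Percent of the genes of each family (number of genes in parentheses) with a member on the body, with 95% Wilson intervals, and the percent with a region called only at day 35 (open diamonds). The dashed line marks the 11.3% of all autosomal protein-coding genes, with the developmental factor families and C2H2 genes to its right and the olfactory and vomeronasal receptors at the left edge.

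On these genes the members mostly reached the start. Of the 126, 99 (78.6%) had a member within 1 kb of a TSS, against 30.2% of the C2H2 genes with a member and 25.0% of the 2150 other genes with one. The 126 were short, with a median of 6.01 kb against 15.8 kb for the C2H2 genes with a member, so a start is more easily met. Members were not at the start alone. They covered at least 50% of the last coding exon in 50 of the 126 (39.7%), against 10.4% of the other genes. H3K4me3 was called at a TSS of 11.1% of the 126 at day 3 and 8.73% at day 35, and of 43.6% and 40.2% of the 117 developmental factor genes without a member. For H3K27Ac the shares were 25.4% and 17.5%, against 64.1% and 55.6%. So within this group the genes with a member carried the marks of active starts less often than those without, at both days. Among factors of the skeleton, Msx2 had a member at its start, and Sox5 held 9 members over 0.813% of its body. Runx2 and Sp7, the runt-family and zinc finger factors that set the osteoblast lineage, had no member on the body or within 5 kb.

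Single members show the pattern. Neurod1, a bHLH factor of neurons, lay wholly within chr2:79292033-79305776, a member of 13744 bp at percentile 98.3 of the day-35 list, with a 7570 bp day-3 region at percentile 97.6. Sox2, a pluripotency and neural factor, lay within chr3:34543901-34554769, of 10869 bp, at percentiles 99.2 (day 35) and 99.4 (day 3). No other mark was called on the Sox2 member at either day. Foxd3, a forkhead factor of the neural crest, lay within a member of 17305 bp at percentiles 99.9 and 99.8, with H3K4me1 over 2.89% of it at day 3 and none at day 35. Gsc, the homeobox gene goosecoid, differed: its 5457 bp member (percentiles 96.4 and 99.0) carried H3K4me1 over 46.9% and 36.8% of its bases and H3K4me2 over 36.2% and 53.5%, and the gene had H3K4me3 at its start at both days. Gata4, a heart and endoderm factor, held members of 20064 and 7454 bp in a day-3 region of 32885 bp. Pax6, a factor of the eye and brain, held 3 members in a day-3 region of 34226 bp.

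Of the 20 listed genes of germline imprint control regions, 18 were in the annotation, and 8 had a member on the body or within 5 kb (44.4%, interval 24.6% to 66.3%). Members were matched to the genes. The positions of the control regions were not used, so a member here may lie outside them. Some held few CpG, with 5 in the Airn member and 12 and 1 in the Rasgrf1 members. The share over all annotated autosomal genes was 14.2%. That share, used for the lists below as well, counts genes that code for no protein too and was not matched for gene length. Members also lay at 9 of 23 other imprinted genes (39.1%). At Zdbf2 a member of 22503 bp (chr1:63304867-63327369, percentile 99.9 at both days) had its centre 3721 bp from the nearest TSS, with no other mark called on it. At Nnat the member was 1746 bp, at percentiles 67.5 (day 35) and 99.1 (day 3), with H3K36me3 and H4K20me1 over all of it at both days. At Gnas a 2044 bp member centred 30 bp from a TSS (percentiles 84.3 and 93.6) likewise carried both marks over its whole length at both days. At Mest a 1911 bp member (percentiles 75.4 and 98.4) overlapped 15 of the 16 other lists, with H3K4me3 over 78.6% of it at day 3 and 73.3% at day 35. Grb10 held 7 members, of which the one at chr11:11925608-11926107, 500 bp wide, had the highest GC content at 67.0%. Meg3 held a 6992 bp member at percentiles 99.5 and 98.6 with no other mark, and Rasgrf1 and Airn held members with none either.

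The TGCCGC hexamers of the imprint members were uneven. The Mest member held 11 (5.76 per kb) and the Nnat member 6 (3.44 per kb), the Gnas member 2 (0.978 per kb) and the 3 Zdbf2 members 4, 2 and 0, the Meg3 member 1, and of the 7 Grb10 members 1 held a single hexamer and 6 held none, while the Airn member and both Rasgrf1 members held 0. Over all members, the 300 bp at the centre held the hexamer on either strand in 2.29% (interval 2.04% to 2.57%), against 1.48% (1.33% to 1.65%) of regions called only at day 35. The hexamer contains a CpG, and its share follows base composition: under 40% GC it was 0.636% against 0.621%, from 40% to 45% GC 1.62% in both, and from 45% to 50% GC 3.56% against 3.04%. Only above 50% GC did the intervals part, with 13.4% (11% to 16.1%) of 688 members and 5.04% (3.51% to 7.18%) of 556 day-35-only regions. That class has no upper limit, and neither GC content nor CpG number was matched within it. Of all members 1.00% were CpG-rich, as defined further below, against 0.0603% of all day-35-only regions. Whether the difference above 50% GC goes beyond base composition was not tested. A match is a run of letters and not a bound site.

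Of 24 germline genes, 8 (33.3%, interval 18% to 53.3%) had a member within the same distance, against 14.2% of all annotated genes. A region called only at day 35 lay at 8 of the 24 as well, against 12% of all annotated genes. Those with a member were Sycp1 (a synaptonemal complex protein), Smc1b (meiotic cohesin), Brdt (a testis bromodomain protein), Stk31, Asz1, Mov10l1, Tdrd1 and Tdrd6, the last 4 with known roles in the piRNA pathway or in Tudor-domain germ granules. The widest was the 11916 bp member at Tdrd6, at percentiles 98.8 (day 35) and 98.0 (day 3). At Tdrd1 a 500 bp member was centred 8 bp from a TSS. Of 24 genes of other lineages, 7 (29.2%, interval 14.9% to 49.2%) had a member, among them Neurod1 and Sox2 (neural), Myog (muscle), Cd3e (T cells), Col2a1 (cartilage) and Pparg (fat). At Pparg the member was only 500 bp, at percentiles 6.87 (day 35) and 91.0 (day 3), and overlapped 9 other lists, whereas the members at Myog and Cd3e overlapped none. On the body itself a member lay at 3 of the 24, where 11.3% of all autosomal protein-coding genes held one. A region called only at day 35 lay on the body or within 5 kb at 5 of the 24, against 12% of all annotated genes.

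Among 18 osteoblast genes Ibsp and Msx2 had a member (11.1%, interval 3.10% to 32.8%). Among 11 osteocyte genes Dmp1, Sost and Dkk1 had one (27.3%, interval 9.75% to 56.6%). The share of all annotated genes, 14.2%, lay within both intervals. The Ibsp member, in the gene for bone sialoprotein, was 664 bp at percentile 35.1 of the day-35 list. At day 3 its one other mark was H3K4me1, over 14.0% of it, and at day 35 it lay fully under H3K4me1, H3K4me2, H3K27Ac, H4K5Ac, H3K9Ac and H3K36me3. The Msx2 member at the gene start (2765 bp) had H3K4me3 over 37.7% at day 3 and 0% at day 35. The Sost member lies upstream, outside the body, with its centre 1710 bp from a TSS, and overlapped 15 of the 16 lists. Dkk1, a Wnt inhibitor, had 3 members near it, of 2684, 787 and 718 bp. Of 21 genes of the H3K9 methylation machinery, 3 had a member: Cbx3 (an HP1 protein), Kdm3a (a demethylase of the same lysine) and Atf7ip (a SETDB1 partner), of which 1 held it on the body. That is 14.3%, against 14.2% of all annotated genes. At the starts of the 21 machinery genes, H3K4me3 was called for 20 at day 3 and 18 at day 35. Setdb1 and Zfp57 were called at day 3 alone and Zfp445 at neither day. H3K27Ac was called for 20 at both days. Over all autosomal protein-coding genes the shares were 47.9% and 42.7% for H3K4me3 and 60.4% and 58.9% for H3K27Ac.

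Other marks on the members were few in number but more frequent than on regions called only at day 35. No other mark at either day overlapped 9084 members (73.4%), against 97.3% of the day-35-only regions. H3K36me3 was the most frequent at day 3, on 1838 members (14.8%, interval 14.2% to 15.5%) against 0.352% of day-35-only regions. At day 35 it was on 813 (6.57%) against 0.607%. H3K4me1 was on 10.6% and 8.88% of members at days 3 and 35, against 1.15% and 1.23%. H4K5Ac was on 5.96% and 6.52%, H3K27Ac on 4.32% and 4.98%, H3K4me2 on 4.19% and 5.73%, H4K20me1 on 3.06% and 2.28%, H3K9Ac on 2.90% and 2.76%, and H3K4me3 on 0.670% and 1.32%. Members are wider, but for H3K36me3 and H3K4me1 at day 3 the same order was seen in each of the 4 width classes: among regions under 1000 bp, H3K36me3 at day 3 was on 19.5% of members and 0.387% of the others, and H3K4me1 on 9.67% and 1.04%. In the day-3 H3K9me3 list as a whole, 27.3% of autosomal regions overlapped H3K36me3, and members have a day-3 H3K9me3 call by definition, which the others lack.

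**Figure D4:**
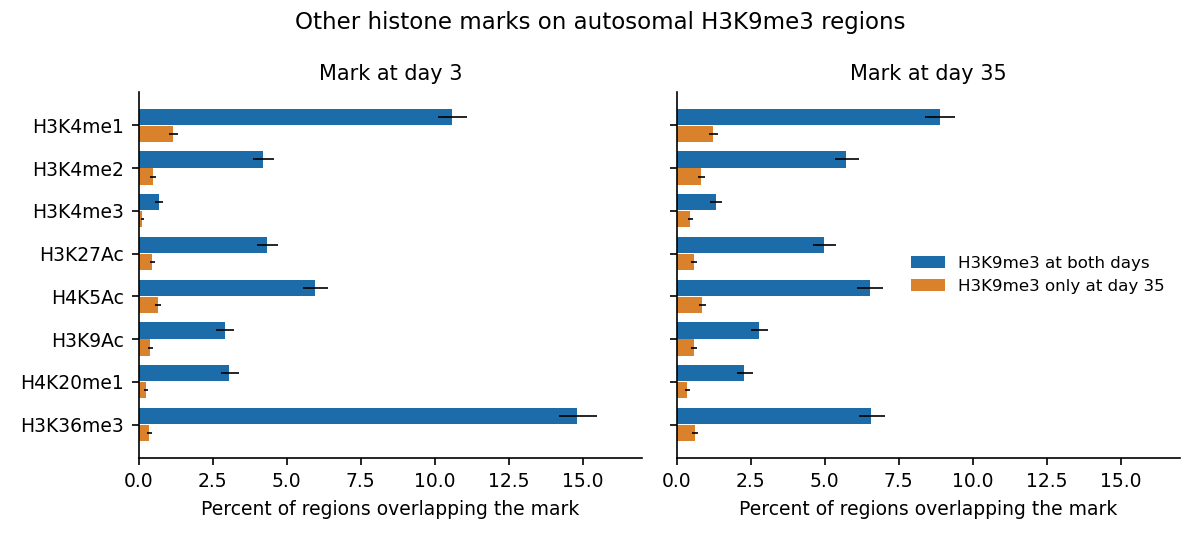
Percent of autosomal H3K9me3 regions that overlap each other mark by 1 bp or more at day 3 (left) and day 35 (right), for the 12379 regions at both days and the 21573 only at day 35, with 95% Wilson intervals. Members have the longer bar for every mark at both days, most of all for H3K36me3 at day 3 with 14.8% against 0.352%.

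Measured by bases, most marks were still scarcer on members than over the autosomes at large. H3K27Ac covered 2.01% of member bases at day 3 and 2.61% at day 35, against 9.0% and 10.8% of the autosomes, and H3K4me1 covered 5.35% and 4.03% against 13.7% at both days. H3K36me3 covered 9.44% and 6.52%, against 12.3% and 11.8%. H3K4me3 was the exception, with 0.749% and 3.70% of member bases against 0.695% and 0.515%. At day 35 it covered 85.0% of the widest member, at Cpm on chromosome 10, and at day 3 none of it. Without both blocks of that chromosome, 0.610% of members overlapped H3K4me3 at day 35 instead of 1.32%.

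H3K36me3 on members differed between the days. Of the 1838 members with it at day 3, 681 (37.1%) had it at day 35 as well, while 83.8% of the 813 with it at day 35 had it at day 3. The members that had it at day 3 alone numbered 1157. By gene class, H3K36me3 was on 76.0% (day 3) and 80.0% (day 35) of the 150 members on C2H2 genes, on 4.49% at both days of the 178 on developmental factor genes, on 17.5% and 14.0% of the 3500 on other genes, and on 12.9% and 2.27% of the 8551 on no protein-coding gene. The difference between days thus sat mainly in the last class, where 1103 members had the mark at day 3 and 194 at day 35. Where day-3 H3K9me3 regions that overlap day-3 H3K36me3 were left out before members were chosen, 10462 members were left. They lay on 23 C2H2 genes instead of 129, at 4 imprint control genes instead of 8, and on 120 developmental factor genes instead of 126.

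The 2 gene classes differed in most of what was measured. Members on C2H2 genes had a median width of 3952 bp, a GC content of 40.1% and a ratio of observed to expected CpG of 0.20. Those on developmental factor genes had 3391 bp, 48.6% and 0.48, and those on no gene 1123 bp, 41.4% and 0.14. In both gene classes the median member was covered in full by day-3 regions, against 83.9% of the bases of those on no gene. H3K4me1 was on 53.9% (day 3) and 33.1% (day 35) of members on developmental factor genes, H3K4me2 on 38.2% and 34.8%, and H3K9Ac on 16.3% and 10.1%. H4K20me1 was on 24.7% of them at day 3 and 6.18% at day 35, while on C2H2 members it was on 12% and 19.3%. H3K4me3 was on 2.25% and 2.81% of the former and 1.33% and 0.667% of the latter.

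**Figure D5:**
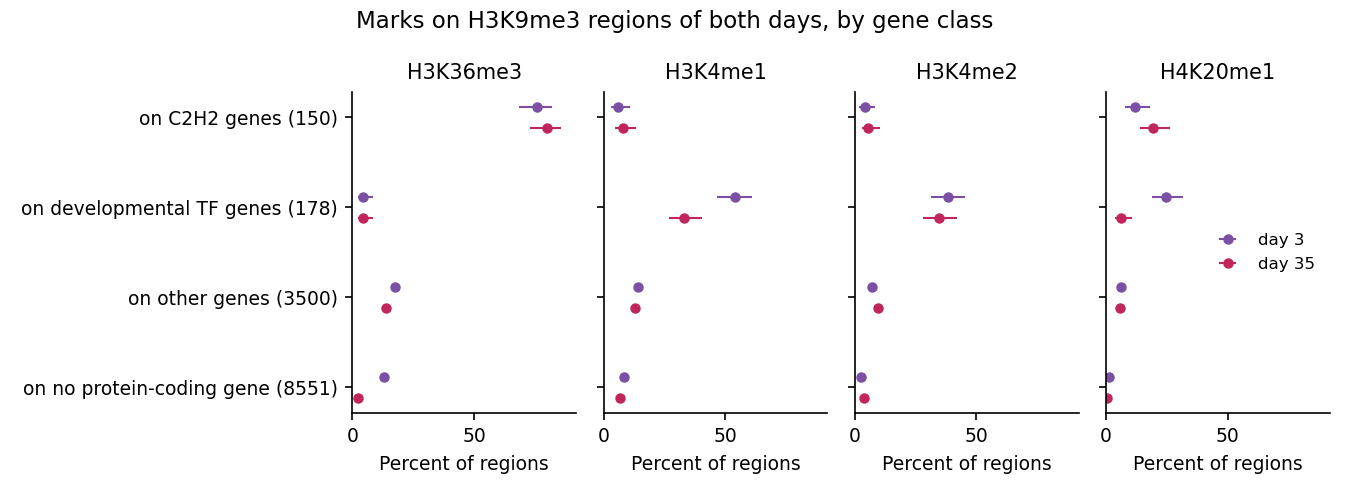
Percent of members that overlap H3K36me3, H3K4me1, H3K4me2 or H4K20me1 at day 3 and day 35, with 95% Wilson intervals, by whether the member lies on a C2H2 gene (150), a developmental transcription factor gene (178), another protein-coding gene (3500) or none (8551). H3K36me3 stands out on C2H2 genes with 76.0% and 80.0%, and H3K4me1 on developmental factor genes with 53.9% and 33.1%.

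Members with H3K4me3 at both days were rare, 64 in all, and 44 of them overlapped 14 or more of the 16 lists. Such a member lay within 1 kb of a TSS of 37 genes. The 10 of these with the highest scores came from 3 places only, Sfi1, Dmp1 and the start of chromosome 9, where 8 predicted genes of the Gm series share 1 member. These are the same members that overlapped every list.

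Few members held a peak of VDR or RXR. Only 17 members (0.137%) overlapped a peak in any of the 8 libraries, and 14 of those also carried H3K27Ac at day 35. With vehicle, VDR peaks lay on 4 and 3 members in the 2 libraries, and with hormone on 6 and 8, from 1595 and 1315 autosomal peaks. RXR peaks lay on 8 and 5 members with vehicle and on 10 and 10 with hormone, where the lists held 10251 and 7584 autosomal peaks. As a share of the peaks this was from 0.0976% to 1.40%, and 4 of the 17 members overlapped all 16 lists of histone marks. For scale, members made up from 0.307% (chromosome 14) to 2.20% (chromosome 19) of the length of a chromosome. The VDR shares lay within that wide range, at 1.40% and 0.901% with vehicle and, toward its lower end, at 0.376% and 0.608% with hormone. The RXR shares, from 0.0976% to 0.132%, lay below the range. The share of all autosomes together was not computed, so whether VDR peaks fell on members less often than that share is not shown. Of the regions called only at day 35, from 1 to 3 held a peak in each library.

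In base content the members were close to the genome. Their median GC content was 41.7%, as in 23929 windows of 1 kb taken every 100 kb, with a ratio of observed to expected CpG of 0.15 against 0.16. CpG-rich members (over 55% GC and a ratio over 0.65) numbered 124, or 1.00%, against 0.0603% of day-35-only regions and 0.435% of windows. How repeated the sequence is was measured by counting in the genome each run of 24 bases. The median share of runs that occurred 100 times or more was 1.26% in members, 1.13% in the windows and 0% in day-35-only regions, so a typical member was no less repeated than a typical window. The means were 3.08%, 9.36% and 2.40% in that order, as some windows were highly repeated. Only 1 member had at least 50% of its runs at that number of copies, against 5.91% of windows. Outside members the share rose to 7.01% in the first 250 bp and 8.95% at 2750 to 3000 bp. The called regions lie mostly in sequence of low copy number, and H3K9me3 in highly repeated sequence was not assessed.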

How the data were processed

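Per the submitters' processing notes, Bowtie and HOMER were used with the mm9 build; versions, settings and read depth were not stated in the sources at hand. The authors deposited 1 list of called regions per library with a score for each region, a number whose scale is not stated, used here only for ranks within a list. Lists were compared by overlap of 1 bp or more with Python 3.11.15, numpy, pandas and pysam. Genes came from GENCODE M1 on the same build, taking 1 record for each of 21281 symbols. The reference carries no repeat masking, so repeats were measured by 24-mer copy number, an addition made after the files were seen. Named genes lie on the 15 widest and 15 highest-ranked members, belong to listed genes with a member, or are the 10 most covered C2H2 genes, 10 promoters with H3K4me3 and genes with 5 or more members. The members and lists were chosen with earlier results of these data known. No test was made. Interval code was checked on simulated data. Input samples were not used here.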

Additional observations from a re-analysis of the deposited data

How the results depend on the processing

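Of 130 values recomputed under alternatives for 14 results, 65 stayed within 1.5 times (counts) or within the interval of the reported value, and the others are given here in the order members, percent of day-35 regions, median width in bp, percent of centres near a TSS, then H3K36me3, H3K4me3 and H4K20me1 at days 3 and 35. With an overlap of 50% of the shorter region, members were 35.1% of day-35 regions. With the higher-scoring 50% of each list the values were 6146, 37.6%, 1911, 3.61%, 16.8%, 8.22%, 1.09%, 1.95%, 4.20% and 2.96%. With regions of 1 kb or more they were 4596, 34.8%, 2440, 4.20%, 16.2%, 8.66%, 1.20%, 2.13%, 4.85% and 3.33%. With lists of 31517 regions each, the percent was 38.1% and the width 1218. A TSS window of 2 kb gave 5.94%. Merging regions closer than 1 kb changed nothing, since no 2 autosomal day-35 regions lie closer than 2000 bp. Where the mark had to cover 50% of the member, the mark values were 13.1%, 5.52%, 0.355%, 1.12%, 1.87% and 1.59%, and with the higher-scoring 50% of the mark list 7.84%, 4.49%, 0.226%, 1.02%, 1.94% and 1.76%. C2H2 genes by 1 or more fingers numbered 198 with a member. Alternatives chosen after seeing the data follow. Leaving out members in 8 or more lists gave 35.5%, 2.70% near a TSS, and marks of 13.7%, 5.81%, 0.0912%, 0.365%, 2.00% and 1.38%. Leaving out the chromosome 10 blocks gave 0.610% for H3K4me3 and 1.94% for H4K20me1 at day 35. Leaving out day-3 regions that overlap H3K36me3 gave 30.8%, a width of 1268, 23 C2H2 genes, 4 imprint control genes, and marks of 0.182%, 1.31%, 0.315%, 0.707%, 1.63% and 0.574%, as this choice removes H3K36me3 by its construction. Single VDR and RXR libraries gave 4, 3, 6, 8, 8, 5, 10 and 10 members. For the other moved values the cause was not tested. No paired analysis was possible because the results come from no test. Without read depths, the absence of a region cannot be told apart from too few reads.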

Other observations

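A further set of families was picked after their values were seen. Potassium channel genes held a member at 24 of 79 (30.4%) and a region called only at day 35 at 30. Their median length was 26.8 kb, that of those with a member 57.6 kb, and members covered a median of 5.12% of the body. Wnt ligand genes held a member at 7 of 19, those with a member having a median length of 20.8 kb and a median cover of 12.2%. Non-clustered protocadherin genes held one at 5 of 10, with a median length of 93.5 kb and a median cover of 1.19%. Regions called only at day 35 lay on 6 of the 19 and 3 of the 10. Of all autosomal protein-coding genes, 11.3% held a member and 9.32% a day-35-only region. Over all genes with a member the median cover was 3.63%.

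Members were numerous within some long genes. In all, 106 genes held 5 or more, with a median length of 227 kb. Gm20388, an annotated locus of 4435 kb, held 26, and Arfip1, whose annotated body reaches 1391 kb, held 23. Hydin, a gene of motile cilia, held 15 over 343 kb with 22.9% of its body covered. Dlgap2, a postsynaptic scaffold gene, held 14, Acoxl 13, and Pax5, the B-cell factor, 8. Of the groups of members within 50 kb, picked after they were seen, 15 members on chromosome 3 (79.9 kb) spanned Fcrls, Cd5l, Fcrl1 and Fcrl5, which are expressed in immune cells, and 13 spanned Dmrt1, Dmrt3 and Dmrt2, factors of the gonad, on chromosome 19 (59.8 kb).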
